A study of Mus musculus with 12 samples.

Results

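Acetylation of histone H3 on the lysine that gives the mark H3K27ac its name was profiled by chromatin immunoprecipitation and sequencing in the Cas9-GFP line of mouse embryonic stem cells, and its library was compared with the input of the same line over 1 kb bins of the autosomes. The pair are 2 of the 12 libraries of a series on the zinc-finger protein GZF1, and the comparison used 2462755 autosomal bins of 2725549 bins in all. The H3K27ac library is labelled wild type and was made with an antibody to H3K27ac from Thermo Fisher, whereas the input is chromatin without an antibody whose genotype field reads only input. Both came from cells fixed with 1% formaldehyde and chromatin cut with micrococcal nuclease. There is 1 library on each side, so no test between them was made. Of the other libraries, 6 served as comparison in the same bins. Of these 4 came from the Cas9-GFP line, namely anti-GZF1 in wild type, in a control and in a Gzf1 knockout, and anti-FLAG in clone 35, which overexpresses Gzf1-Flag. The RGM line (129xCAST) gave anti-GZF1 in wild type and anti-FLAG in clone 56, which overexpresses Gzf1-Flag. Each clone is 1 clonal line.

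H3K27ac is laid down by the acetyltransferases p300 and CBP and is found on the nucleosomes beside active promoters and enhancers. In embryonic stem cells it is known from the starts of housekeeping and pluripotency genes and from enhancers bound by the pluripotency factors, and it is low at developmental genes held silent by Polycomb, whose promoters carry methylation on the same lysine. Most mammalian promoters of broadly expressed genes are CpG islands, and a subset of these holds the palindromic motif of NRF1, a transcription factor known for nuclear genes of mitochondria and of basic cell functions.

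The H3K27ac library held 40.8 M reads and the input 10.1 M, which is 15.9 and 3.93 reads per autosomal bin, and 5.79% and 17.2% of the bins held 0 reads. Levels are given as density, the reads of a bin divided by the autosomal mean of its library, and a ratio is H3K27ac density over input density with reads pooled over the bins named. Intervals are 95% exact Poisson or Clopper-Pearson limits, which cover counting error only, since sequenced reads are not independent molecules. Reads that cross a bin edge were split, so counts need not be whole. Over the 19 autosomes the ratio ran from 0.980 on chromosome 7 to 1.03 on chromosome 19. The libraries of the control and the Gzf1 knockout stood apart from the other Cas9 libraries on the sex chromosomes, with chromosome X densities of 0.967 and 0.825 against 0.638 for H3K27ac and 0.624 for the input, and values from them are named as theirs wherever they are given. Dividing by the median bin in place of the mean lowers every H3K27ac to input ratio by a factor of 0.876 (−0.19 on the log2 scale). Ratios near 1 therefore have no fixed direction. One pooled ratio relative to another is not altered by the scaling, while counts of bins past a 2-fold line are.

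The sequences that carry the main pattern are those of starts that hold the letters GCGCANGCGC, the core of the NRF1 motif, searched on both strands. This motif was taken up after the values had been seen, because it stood in the sequences of bins with the highest H3K27ac, so its shares among high bins and its values are a description of the library it was taken from. Below are the bases directly before the annotated start (RefSeq, GRCm38.p6, the build mm10), cut where another annotated gene begins, with each match to GCGCANGCGC or to the shorter word TGCGCA, which overlaps it, in capitals. The first 4 are starts with the motif and high H3K27ac, and the last 3 are a developmental gene and 2 pluripotency genes, which hold neither word. Cog6 lies at chr3:53017224-53017473 (minus strand), Brk1 at chr6:113604522-113604771 (plus), Sdha at chr13:74350241-74350316 (minus), Polr2b at chr5:77310414-77310483 (plus), Hoxd9 at chr2:74697513-74697762 (plus), Pou5f1 at chr17:35505782-35506031 (plus) and Nanog at chr6:122707239-122707488 (plus).
Cog6: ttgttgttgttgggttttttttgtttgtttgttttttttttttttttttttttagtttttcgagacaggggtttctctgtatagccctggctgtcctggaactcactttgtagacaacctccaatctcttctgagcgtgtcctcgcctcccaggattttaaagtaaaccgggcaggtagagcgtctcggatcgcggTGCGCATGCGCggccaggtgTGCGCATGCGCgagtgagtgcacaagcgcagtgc
Brk1: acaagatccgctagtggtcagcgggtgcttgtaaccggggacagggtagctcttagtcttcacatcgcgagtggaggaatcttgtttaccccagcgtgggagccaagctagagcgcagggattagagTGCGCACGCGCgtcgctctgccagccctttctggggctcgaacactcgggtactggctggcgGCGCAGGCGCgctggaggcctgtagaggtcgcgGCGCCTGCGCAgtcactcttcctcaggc
Sdha: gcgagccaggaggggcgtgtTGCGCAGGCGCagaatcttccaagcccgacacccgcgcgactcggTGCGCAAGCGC
Polr2b: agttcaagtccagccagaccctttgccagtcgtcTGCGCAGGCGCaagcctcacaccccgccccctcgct
Hoxd9: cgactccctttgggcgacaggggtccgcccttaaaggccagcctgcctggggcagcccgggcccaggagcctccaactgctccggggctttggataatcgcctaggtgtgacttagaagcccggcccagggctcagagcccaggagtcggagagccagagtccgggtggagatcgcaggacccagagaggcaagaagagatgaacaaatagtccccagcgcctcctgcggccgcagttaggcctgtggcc
Pou5f1: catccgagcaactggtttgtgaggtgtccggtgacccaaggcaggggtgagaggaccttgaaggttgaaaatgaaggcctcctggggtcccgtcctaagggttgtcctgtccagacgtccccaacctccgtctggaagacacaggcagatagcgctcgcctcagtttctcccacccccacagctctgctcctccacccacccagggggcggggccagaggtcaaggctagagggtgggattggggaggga
Nanog: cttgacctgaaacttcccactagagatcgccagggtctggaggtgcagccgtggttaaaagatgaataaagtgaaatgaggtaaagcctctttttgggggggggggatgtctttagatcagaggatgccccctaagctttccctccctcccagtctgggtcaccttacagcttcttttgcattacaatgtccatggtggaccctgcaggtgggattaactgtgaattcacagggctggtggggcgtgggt

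The first 5 of these starts were chosen for their high or low values, so the distance between them is a description. The Cog6 bin (a subunit of the Golgi tethering complex COG) held 130 H3K27ac and 6 input reads, a ratio of 5.36 (2.40 to 14.9). The Brk1 bin (a subunit of the actin-regulating WAVE complex) held 131.8 and 8 reads, a ratio of 4.07 (2.01 to 9.65). At Sdha, the flavoprotein of succinate dehydrogenase, the counts were 149.1 and 11.9 reads and the ratio 3.1 (1.71 to 6.08). Polr2b, a core subunit of RNA polymerase II, had 184.5 and 19 reads and a ratio of 2.40 (1.49 to 4.07). Hoxd9, a homeobox gene, had 20.9 and 15 reads and a ratio of 0.34 (0.17 to 0.72). The first Pou5f1 start, of the pluripotency factor OCT4, had 56.0 and 10.3 reads in its bin. Nanog, another pluripotency factor, had 28.0 and 9.0 reads and a ratio of 0.77 (0.35 to 1.85), an interval that holds 1.

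Relative to bins far from genes, H3K27ac over input was higher by a small margin at gene ends, and this margin lay at the starts of genes. Pooled over the 82966 bins that hold an annotated end of any gene (3.37% of the autosomal bins), the density was 1.49 in H3K27ac and 1.39 in the input, a ratio of 1.070 (1.067 to 1.074). Over the 27441 bins that hold an annotated start the densities were 2.11 and 1.83, a ratio of 1.155 (1.150 to 1.161). Over 12522 bins with the 3-prime end of a protein-coding gene more than 2 kb from a start it was 0.992 (0.984 to 1.001). Starts thus stood 1.15-fold above the bins more than 50 kb from any end (1.004), and all gene ends 1.07-fold, whichever way the libraries were scaled. The ratio to input itself had no fixed direction at gene ends, where scaling to the median turned it to 0.938 (0.935 to 0.941), while starts went to 1.012 (1.007 to 1.017) and the bins beyond 50 kb to 0.880. The ratio was 1.02 in bins 1 kb from an end, 1.01 at 2 kb and 0.995 at 3 to 5 kb. Away from genes it was flat. It was 0.992 at 6 to 10 kb and 0.989 at 11 to 50 kb, and among bins 6 kb or more from an end it was 0.989 inside genes and 0.999 outside. The low level beyond 50 kb belongs to both libraries, with densities of 0.745 in H3K27ac and 0.742 in the input.

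**Figure D1:**
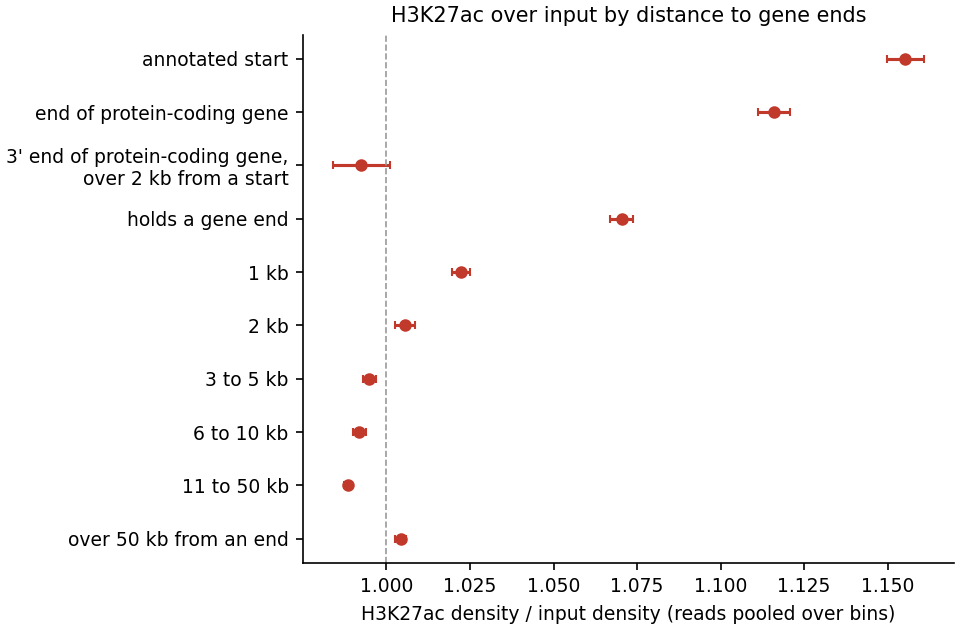
H3K27ac density over input density (horizontal axis, reads pooled over bins) for classes of autosomal bins (vertical axis), with points for the ratio and bars for the 95% Clopper-Pearson interval. Starts stand at 1.16 and 3-prime ends away from starts at 0.992, and the classes from 3 kb outward lie between 0.989 and 1.00.

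Bin by bin the comparison was limited by the input, which held a median of 3.25 reads. In the 1957480 bins whose input density lay between 0.25 and 3, with a pseudocount of 0.5, 98136 bins were at least 2-fold above input (5.01%) and 122251 at least 2-fold below (6.25%). In bins with a gene end, 5108 lay above (7.76%) and 2959 below (4.49%). In bins with a start, 2276 lay above (11.2%) and 667 below (3.29%). Among the bins kept, the balance of the whole genome was thus turned around at starts. With scaling to the median, 80734 bins lay above and 193516 below, 4093 and 4905 of those with a gene end, and 1784 and 1145 of those with a start, so starts kept more bins above than below and gene ends did not. The second measure sets each bin against the median of the 10 bins on each side of it in the same library. By it 8838 bins were at least 2-fold above their surroundings (0.451%), among them 2398 with a gene end (3.64%) and 2110 with a start (10.4%). Of the bins with a 3-prime end away from starts 19 passed (0.177%). The input passed the same line in 149694 bins (7.65%), and H3K27ac thinned to the depth of the input in 91385 (4.67%), so counts on this measure move with depth and only their distribution over the genome is described here.

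The CpG number of the 300 bases around a start sorted both libraries, and H3K27ac more steeply. Starts with 0 to 2 CpG (6765 bins) had a density of 1.02 in H3K27ac and 1.03 in the input, a ratio of 0.992 (0.979 to 1.01). With 3 to 5, 6 to 10, 11 to 20 and 21 to 30 CpG the ratio was 1.00, 1.08, 1.21 and 1.27. Starts with 31 or more CpG (2599 bins) had densities of 4.0 and 3.09 and a ratio of 1.29 (1.28 to 1.31). Unthinned, the share of starts at least 2-fold above their surroundings went from 0.443% to 55.9% in H3K27ac and from 7.6% to 40.2% in the input, beside 15.6% and 16.6% of all start bins. Thinned to the depth of the input, H3K27ac went from 4.85% to 59.5%. Across the 27441 start bins Spearman's rank correlation between CpG number and the level over the surroundings was 0.669 for H3K27ac, 0.394 for the input and 0.723 for wild-type anti-GZF1, a description over bins that share a library and its base composition. Wild-type anti-GZF1, which is no histone antibody, was thus at least as high as H3K27ac at CpG-rich starts, with densities of 3.06 against 2.84 at 11 to 20 CpG and 4.08 against 4.0 at 31 or more.

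**Figure D2:**
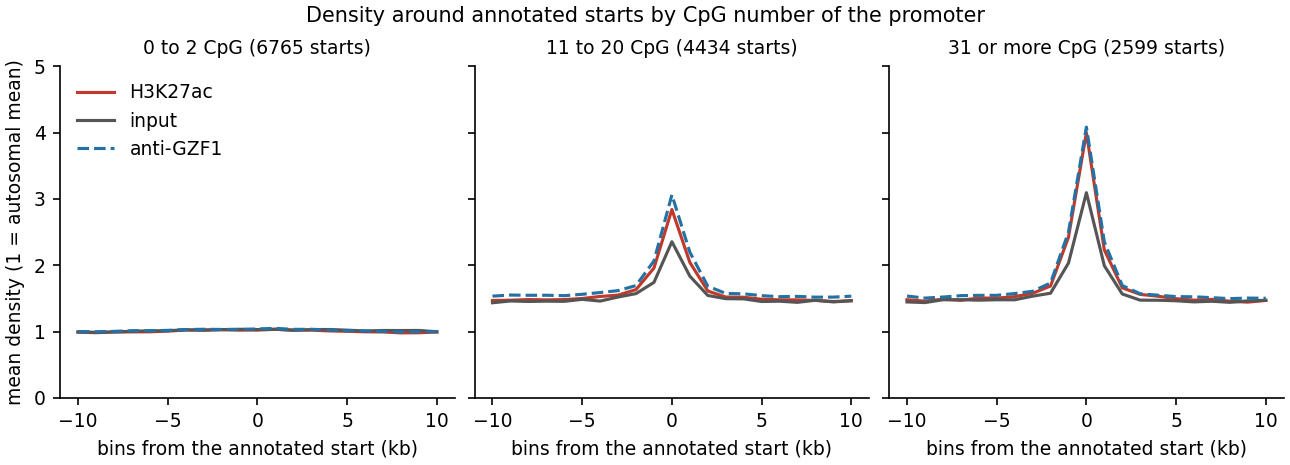
Mean density (vertical axis, 1 is the autosomal mean) of H3K27ac, input and wild-type anti-GZF1 of the Cas9 line in 1 kb bins from −10 to 10 kb around annotated starts (horizontal axis), in 3 classes of CpG number. At 31 or more CpG the start bin reaches 4.0 in H3K27ac, 3.09 in the input and 4.08 in anti-GZF1, and at 0 to 2 CpG the lines do not separate.

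Of 5 known promoter motifs, with CpG number not held apart, 3 were more frequent at starts with more H3K27ac, 1 was less frequent and 1 hardly differed. Each was searched on both strands in the 300 bases around the start. With the starts put in 4 groups of equal size by H3K27ac over its surroundings, from the lowest group to the highest, the share of starts with GGGCGG, the box of SP1 and related factors, went from 8.66% to 70.8% (34.0% of all). For CCGGAAG, the core of ETS factors, it went from 2.0% to 16.8% (8.17% of all), and for CACGTG, the E-box, from 4.05% to 10.9% (6.91%). TATAAA, the box of TATA-binding protein, went the other way, from 21.3% to 5.36% (14.5%), and CCAAT did not sort the groups, with 38.1% in the lowest and 37.2% in the highest (37.3%). The median CpG number rose from 3 in the lowest group to 24 in the highest. In the CpG classes from 11 upward the ratio over input was no higher with GGGCGG than without. At 6 to 10 CpG it was 1.09 against 1.08. It was 1.20 against 1.21 at 11 to 20 CpG, 1.27 against 1.30 at 21 to 30 and 1.29 against 1.35 at 31 or more. In the same classes it was higher with CCAAT, 1.25 against 1.18, 1.31 against 1.25 and 1.32 against 1.28. With CCGGAAG it was 1.21 against 1.21, 1.33 against 1.26 and 1.33 against 1.29. For CACGTG the values were 1.23 against 1.20, 1.30 against 1.27 and 1.29 against 1.29. For TATAAA they were 1.20 against 1.21, 1.24 against 1.27 and 1.23 against 1.29. GCGCANGCGC, which is not among these 5 and was taken up after the values were seen, was in 0.189% of the lowest group, 0.394% and 1.21% of the next 2, and 15.1% of the highest, beside 4.22% of all starts.

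With CpG number held apart, starts with GCGCANGCGC had a higher H3K27ac to input ratio than other CpG-rich starts. Mitochondrial DNA, which carries no histones, had a ratio of 2.01 between the same libraries. A ratio of this size is therefore not read as an amount of the mark. Among starts with 11 or more CpG, the 1162 with the motif had a density of 5.28 in H3K27ac and 3.11 in the input, a ratio of 1.70 (1.67 to 1.73). The 9493 without it had 3.14 and 2.64, a ratio of 1.19 (1.18 to 1.20). The first ratio was 1.43 times the second (1.40 to 1.46). It was 1.43 times at 11 to 20 CpG, 1.42 times at 21 to 30 and 1.42 times at 31 or more, so the difference had the same size in each class. At least 2-fold above their surroundings were 954 starts with the motif (82.1%) and 3036 without (32.0%). In the input those shares were 37.4% and 28.7%, and in thinned H3K27ac 80.8% and 40.2%. Only 44 starts with 10 or fewer CpG held the motif, and their ratio was 1.32.

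Taken over input, the excess at starts with the motif was seen in H3K27ac and in none of the other 6 antibody libraries of the table. The motif was taken from the H3K27ac library, so this contrast is a description. Against their surroundings, starts with the motif passed 2-fold more often than those without in every library, the input included. The shares were 59.1% and 44.0% in wild-type anti-GZF1, 23.4% and 13.9% in Cas9 anti-FLAG, and 84.2% and 72.0% in RGM anti-GZF1. Relative to input, the density at starts with the motif over that at starts without it was 0.968 in wild-type anti-GZF1 and 0.979 in anti-FLAG of the Cas9 line. It was 0.969 in the control, 0.954 in the Gzf1 knockout, 0.967 in RGM anti-FLAG and 0.979 in RGM anti-GZF1, against 1.43 in H3K27ac. H3K27ac over wild-type anti-GZF1 of the same line was 1.33 (1.31 to 1.34) with the motif and 0.899 (0.896 to 0.902) without. With each library divided by its autosomal mean, H3K27ac was thus the denser of the 2 at starts with the motif and the less dense at CpG-rich starts without it. RGM anti-GZF1 had a higher density than H3K27ac in both groups (5.87 and 5.09), without a difference between them beyond that of the input.

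**Figure D3:**
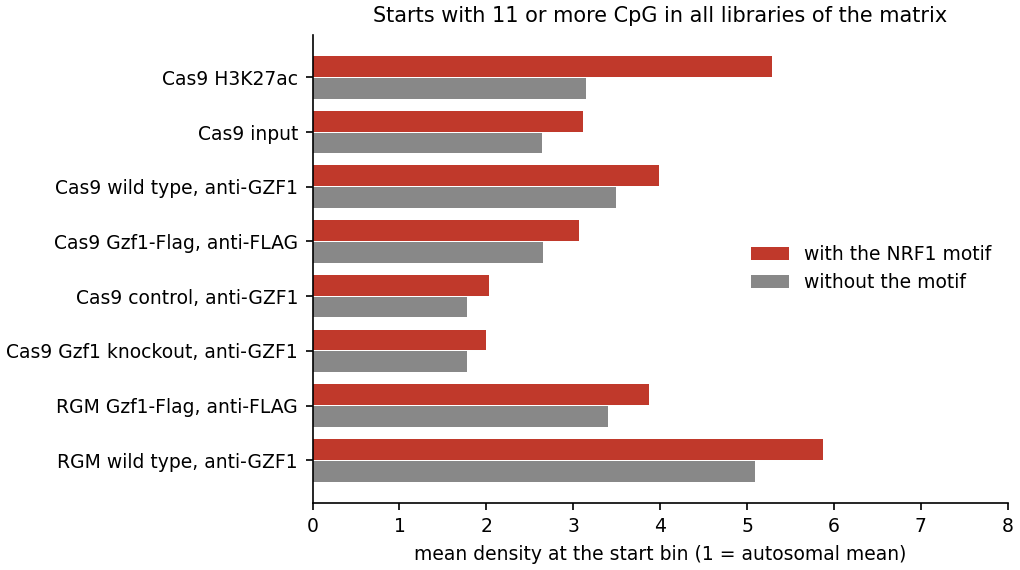
Mean density at the start bin (horizontal axis, 1 is the autosomal mean) of 1162 starts with and 9493 without the NRF1 motif, all with 11 or more CpG, in the 8 libraries of the table (1 library each, no error bars). H3K27ac has 5.28 with and 3.14 without the motif, and wild-type anti-GZF1 of the same line 3.98 and 3.49.

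All 2080 words of 6 bases, with a word and its reverse complement as 1, were ranked, and the same core came first. The ranking used the reads and starts that the motif was taken from, so it is a description and no independent support. Each word was valued by the H3K27ac to input ratio over those of the 10655 starts with 11 or more CpG that hold it. The palindrome TGCGCA, in 1650 starts, ranked first with 1.54, where the median word had 1.25 and 90% of the words lay between 1.22 and 1.31. It also ranked first over anti-GZF1, with 1.20 against a median of 0.95, and ranked 1984 when anti-GZF1 was set over input. The words next to it were CATGCG (1.54), ATGCGC (1.52), GCATGC (1.52), ACGCAT (1.45) and TACGCA (1.44). The first 3 of these run across the motif as Cog6 holds it, so the ranks are not independent of each other. The lowest over anti-GZF1 was ATGACG with 0.871, which is part of the element of ATF and CREB factors.

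The level went up with the number of TGCGCA copies. With 0 copies (9005 starts) the ratio was 1.20 (1.19 to 1.21), with 1 copy (1394 starts) 1.48 (1.46 to 1.51), with 2 copies (217 starts) 1.77 (1.70 to 1.84) and with 3 or more (39 starts) 2.35 (2.12 to 2.61). Over anti-GZF1 the same 4 groups had 0.903, 1.15, 1.43 and 1.59. The intervals do not overlap within a series, but they cover counting error only and not the spread between starts. TGCGCA was also picked from the same reads, so the series is a description. The median CpG number was 22, 24, 27 and 22. Place mattered less. For starts with a single copy the ratio was highest with the copy 50 to 1 bases before the start (1.62, 1.56 to 1.67, 391 starts). It was lowest at 200 to 151 bases before it (1.34, 1.28 to 1.41, 160 starts).

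The difference was narrow. At starts with the motif the H3K27ac to input ratio was 1.30 in the bin before, 1.70 at the start and 1.22 in the bin after, and without the motif 1.14, 1.19 and 1.11. By 2 kb on either side both groups were between 1.05 and 1.07. Anti-GZF1 over input was 1.28 with and 1.32 without the motif at the start bin.

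**Figure D4:**
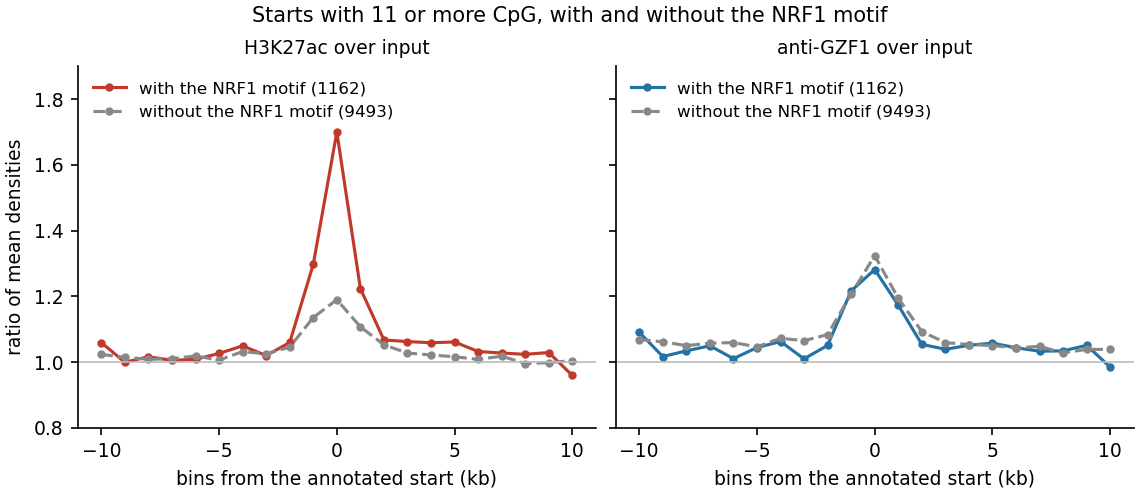
Ratio of mean densities (vertical axis) over input in 1 kb bins from −10 to 10 kb around starts with 11 or more CpG (horizontal axis), for H3K27ac (left) and wild-type anti-GZF1 of the Cas9 line (right), with 1162 starts that hold the NRF1 motif and 9493 that do not. H3K27ac reaches 1.70 with and 1.19 without the motif, while anti-GZF1 reaches 1.28 and 1.32.

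The share of starts with the motif was larger past each line, which describes the bins it was taken from. It was in 2.99% of the 20265 start bins that passed the input filter, in 20.6% of those 2-fold above their surroundings (435 of 2110) and in 33.1% of those 2-fold above both surroundings and input (273 of 824). At 4-fold above the surroundings it was in 28 of 40 starts (70.0%). In anti-GZF1, held to the same 2 lines, it was in 93 of 846 (11%).

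Both measures together named 2457 bins (0.126% of the filtered bins) in 2388 regions, of which 2319 were a single bin and 0 were longer than 2 bins. A gene end lay in 905 regions (37.9%, beside 3.36% of the filtered bins) and a start in 817 (34.2%, beside 1.04%). The 12 regions at gene ends with the highest lower value of the 2 measures held 111.35 to 160.6 H3K27ac reads and 4 to 8.25 input reads. They were 4.42 to 8.86-fold above input and 4.50 to 7.36-fold above their surroundings, while the input was 0.42 to 1.56-fold its own surroundings. Of the 11 with a start sequence 6 held GCGCANGCGC, beside 4.22% of all start sequences and 10.5% of those with 11 or more CpG. The motif was taken up from these sequences, so nothing is read from that count. The 6 were the regions of Cog6, Specc1l, Rad51ap1, Tmem219 with Kctd13, Tmem170b and Tcaim. The 12 were chosen for high H3K27ac, and in them wild-type anti-GZF1 of the Cas9 line was 2.40 to 5.46-fold above its surroundings and RGM anti-GZF1 3.39 to 10.6-fold. RGM anti-GZF1 was the higher over its surroundings at Specc1l (6.63 against 5.80 in H3K27ac), Rad51ap1 (6.86 against 6.36) and Tmem170b (10.6 against 7.36).

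Among the 12, Rad51ap1, a gene of homologous recombination, shares its bin (chromosome 6, 126939001 to 126940000) with an end of D6Wsu163e. The bin held 157 H3K27ac and 8 input reads, 4.85-fold above input (2.40 to 11.4) and 6.36-fold above its surroundings. Specc1l, a cytoskeletal protein, had 145.1 and 7 reads at chromosome 10, 75212001 to 75213000, and was 5.13-fold above input (2.42 to 13.0). Mapk7, the kinase ERK5, had the most reads, 160.6 against 8.25, at chromosome 11, 61494001 to 61495000. It was 4.81-fold above input (2.47 to 11.7), and its start sequences hold no match. The largest ratio was at chromosome 5, 118245001 to 118246000, which holds ends of Rnft2 and of Spring1, a regulator of the SREBP pathway of lipid synthesis. It had 143.35 reads against 4 and was 8.86-fold above input (3.38 to 32.9), and the input there was at 0.42-fold its own surroundings. Bag6, a chaperone gene, had 144.05 and 5.05 reads and Ndfip2, an activator of NEDD4-type ubiquitin ligases, 137.45 and 7. The others were Gm4925 inside Arl1, and Rock1, a kinase of the cytoskeleton, for which no start sequence was used here.

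The 12 starts with the motif that stood highest over both input and anti-GZF1 were ranked on their values and are a description only. Rad51ap1 had 157 H3K27ac, 8 input and 85.45 anti-GZF1 reads in its start bin, which is 2.73-fold over anti-GZF1 (2.09 to 3.62). Cdc34, a ubiquitin-conjugating enzyme of SCF ligases, had 157.1, 11.2 and 82.45 reads and was 2.83-fold over anti-GZF1 (2.16 to 3.76). Hmmr, a spindle-associated protein, had 89.35, 5 and 52.1 reads and was 2.55-fold over anti-GZF1 (1.79 to 3.65). Polh, the polymerase that copies past ultraviolet damage, had 181.85, 12.9 and 124.7 reads and was 2.17-fold over anti-GZF1 (1.71 to 2.74). Sdha was 2.55-fold over anti-GZF1 (1.94 to 3.35) and Brk1 2.23-fold (1.69 to 2.95). Safb2, an RNA-binding nuclear matrix protein, holds 5 copies of TGCGCA, the most of the 12, and was 2.83-fold over input (1.72 to 4.94) and 2.19-fold over anti-GZF1 (1.74 to 2.74). The others were Ppp1r37, Cog6, Phf12, Specc1l and Herc4, with 2.09 to 2.77-fold over anti-GZF1.

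Gene lists were compared at the bins of their annotated starts, pooled over each list. The levels relative to all start bins (a ratio of 1.16) do not depend on the scaling and are given beside each ratio. CpG number is not held apart between lists. Its median was 25 in housekeeping, 20.5 in nucleolar and MYC target, 22 in ribosomal protein and 21.5 in germline genes, against 8 in all genes. Starts with 11 to 20 CpG had a ratio of 1.21 and those with 21 to 30 CpG 1.27, whatever their gene. Over all genes with a start, 3101 of 25747 were 2-fold above input (12%), 795 were 2-fold below (3.09%) and 4447 were 2-fold above their surroundings (17.3%). The median gene was at 0.16 over input and 0.39 over its surroundings on the log2 scale with the pseudocount.

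Housekeeping genes stood above all starts. Their 36 start bins had a ratio of 1.47 (1.33 to 1.64), which is 1.28 times that of all starts. Of 31 genes 8 were 2-fold above input, 0 were 2-fold below and 12 were 2-fold above their surroundings, with medians of 0.61 and 0.90 (log2). The 7 genes with the NRF1 motif, Polr2b and Sdha among them, had a pooled ratio of 2.07 (1.69 to 2.54). The 24 without it had 1.25 (1.11 to 1.43), an interval that holds the 1.19 of CpG-rich starts without the motif. Counted by start bins, 6 of the 9 bins of genes with the motif were 2-fold above their surroundings, and 6 of the 27 bins of genes without it. The largest ratio over input in the list was that of Cfl1, the actin-binding protein cofilin, with 63.4 reads against 1, 15.7 with an interval from 2.70 to 625. Rhoa, a small GTPase of the cytoskeleton, had 133.95 H3K27ac and 11 input reads and a ratio of 3.01 (1.63 to 6.18). Srsf2, a splicing factor, had 123.85 and 11 reads and 2.78 (1.51 to 5.73). Cfl1, Rhoa and Srsf2 were named after their values were seen. Gapdh, of glycolysis, had 44.15 and 4 reads and an interval from 0.99 to 10.4. Pkm, a pyruvate kinase of glycolysis, went the other way in its 2 start bins, with 94.05 and 47.45 reads and a ratio of 0.49 (0.34 to 0.72). Its input stood 1.78 (log2) above the surroundings and its H3K27ac 0.56. Ubb, a ubiquitin gene, had 1.38 (0.67 to 3.18).

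The 20 genes of the nucleolar and MYC target list, which make ribosomes or answer to MYC, had a ratio of 1.37 (1.19 to 1.59), 1.19 times that of all starts. Of these, 5 were 2-fold above input and 10 were 2-fold above their surroundings, and in the input 5 were. The 4 genes with the NRF1 motif had 1.57 (1.18 to 2.18) and the 16 without it 1.32 (1.12 to 1.55), and these intervals overlap. Wdr43, of small-subunit assembly, had 84.8 and 15 reads and a ratio of 1.40 (0.80 to 2.61), and Nop58, of the nucleolar methylation complex, 1.02 (0.54 to 2.13). The 61 ribosomal protein genes had 1.23 (1.14 to 1.34), 1.07 times that of all starts, with 11 genes 2-fold above input and 13 above their surroundings. Their 6 genes with the NRF1 motif had 1.80 (1.34 to 2.45) and the 55 without it 1.19 (1.09 to 1.30). Rpl15 had 65.4 and 8 reads and a ratio of 2.02 (0.96 to 4.85), and Rps18 57 and 17.9 reads and 0.79 (0.45 to 1.41), and both intervals hold 1. Replication-dependent histone genes had 1.33 (1.16 to 1.53) over 56 bins, with 16 of 62 genes 2-fold above input but only 2 above their surroundings. H1f4, a linker histone, had 42.25 and 5 reads, and H2ac20 49.3 reads against 1, a ratio of 12.2 whose interval runs from 2.08 to 488.3.

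Pluripotency genes were above 1.0 as a list but not separated from all starts. Their best-known members were not separated from the input one by one. The 29 start bins had a ratio of 1.32 (1.14 to 1.53), 1.14 times that of all starts, whose 1.16 lies in the interval. Of 22 genes 4 were 2-fold above input and 2 above their surroundings, beside 12% and 17.3% of all genes. No start of the 22 holds the NRF1 motif. Trim28, the corepressor of KRAB zinc-finger proteins, was highest over its surroundings, with 142 and 15.7 reads and a ratio of 2.24 (1.31 to 3.94). Sox2 had 51.45 and 7.2 reads and 1.77 (0.81 to 4.71), and Pou5f1 93.7 and 14.45 reads over 2 bins and 1.60 (0.94 to 3.15). Lin28a, whose product binds RNA and blocks the let-7 microRNAs, had 1.56 (0.73 to 3.78), and Id3, an inhibitor of helix-loop-helix factors, 1.49 (0.62 to 4.31). The intervals of Sox2, Pou5f1, Lin28a and Id3 all hold 1. Among markers of cell type, the 10 stem cell genes with a start had a pooled ratio of 1.32 (1.06 to 1.65) and densities from 1.13 at Esrrb to 4.19 at Klf4. The 5 feeder fibroblast genes with a start had 1.30 (0.83 to 2.13) and densities from 1.07 at Postn to 1.93 at Twist2. The 2 intervals overlap, and that of the fibroblast genes is wide.

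Developmental regulators with bivalent promoters lay below all starts although their promoters are as CpG-rich as those of housekeeping genes, with a median of 25 CpG in each. Their 46 start bins had a ratio of 0.961 (0.863 to 1.07), 0.832 times that of all starts and below the 1.19 of CpG-rich starts without the NRF1 motif, which none of their 40 genes holds. With bins of input density from 0.25 to 3 alone the ratio was 1.25 (1.08 to 1.45) against 1.26 for all starts and 1.52 for CpG-rich starts without the motif, so the distance to all starts was lost and that to CpG-rich starts was not. In those bins the list stood above olfactory receptors (0.835), vomeronasal receptors (0.844), fibroblast genes (1.12) and genes of differentiated tissues (1.18). Over all bins its value lies below theirs with overlapping intervals. The filter selects on input, the denominator, and moved sets in both directions. CpG-rich starts without the motif went from 1.19 to 1.52 and olfactory receptors from 0.994 to 0.835. The filtered distances and order of lists are therefore a description of the bins kept. Of the 40 genes 2 were 2-fold above input and 3 were 2-fold below. Over wild-type anti-GZF1 the list had 0.795 (0.749 to 0.844), where CpG-rich starts without the motif had 0.899. Hoxa9, of the HOXA cluster, had 20.2 and 15 reads and a ratio of 0.33 (0.16 to 0.69), and T, the mesoderm factor brachyury, 19.75 and 13.25 reads and 0.37 (0.18 to 0.83). The start bins of Hoxa9, T and Hoxd9 had input densities of 3.82, 3.38 and 3.82, above the limit of 3, so these low examples are among the bins that the filter leaves out. Bmp4, a signalling ligand, had 53 and 4 reads and 3.28 (1.21 to 12.5), the other end of the list. Six2 was at 1.53 (0.64 to 3.83) and Irx3 at 0.59 (0.32 to 1.13), both homeobox genes. Hoxa9, Hoxd9, T and Bmp4 were named after their values were seen.

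**Figure D5:**
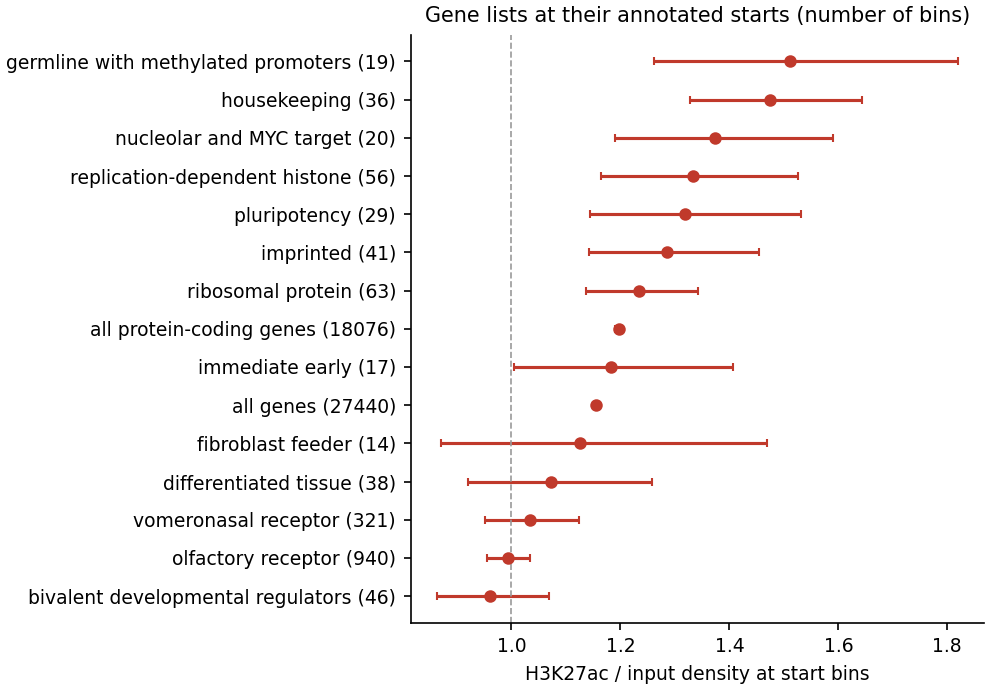
H3K27ac density over input density (horizontal axis) at the start bins of each gene list (vertical axis, number of bins in parentheses), with points for the pooled ratio and bars for the 95% Clopper-Pearson interval. Housekeeping starts stand at 1.47 and bivalent developmental starts at 0.961, with all genes at 1.16.

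Germline genes whose promoters are methylated in other cells had a ratio of 1.51 (1.26 to 1.82) over 19 bins, 1.31 times that of all starts, an interval that overlaps that of housekeeping genes. With bins of input density from 0.25 to 3 alone they had 1.74 (1.39 to 2.21), nucleolar and MYC targets 1.75 and housekeeping genes 2.17 (1.82 to 2.60). Of 18 genes 5 were 2-fold above input and 7 above their surroundings. The 5 genes with the NRF1 motif had 1.9 (1.36 to 2.72) and the 13 without it 1.36 (1.10 to 1.70), and these intervals overlap. Stk31, a kinase gene of germ cells, had 80.95 and 11 reads and a ratio of 1.82 (0.97 to 3.79). Dazl, an RNA-binding germ cell protein, had 55.85 and 13 reads and 1.06 (0.58 to 2.12). Imprinted genes had 1.29 (1.14 to 1.45) over 41 bins, with 1.31 (0.876 to 1.96) for the 2 genes with the NRF1 motif and 1.32 (1.16 to 1.49) for the 26 without it. Ndn, a paternally expressed gene, had 59.2 and 3 reads and a ratio of 4.88 (1.59 to 24.3), and Peg3, another, 72.25 and 19 reads and 0.94 (0.56 to 1.65). Immediate early genes, which serum induces, had 1.18 (1.00 to 1.41), with Jun at 1.31 (0.59 to 3.13) and Fosl2 at 0.73 (0.41 to 1.30).

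Lists of differentiated tissue, fibroblast and receptor genes lay near or below all starts, unlike the germline list above (1.51). Whether the genes of any list were silent in these cells was not measured. Genes of differentiated tissues had 1.07 (0.919 to 1.26) over 38 bins, and 0 of 36 were 2-fold above their surroundings. Apoa1, of lipoprotein, had 39.1 and 6 reads and 1.61 (0.68 to 4.65), and Hba-a1, of haemoglobin, 6 and 4 reads and 0.37 (0.09 to 1.79). Fibroblast genes had 1.12 (0.871 to 1.47), with Col6a1, a collagen, at 0.52 (0.15 to 1.84). Olfactory receptors had 0.994 (0.955 to 1.03) over 940 bins, and 3 of 938 were 2-fold above their surroundings where 84 were in the input. Vomeronasal receptors had 1.03 (0.951 to 1.12) over 321 bins. Their promoters hold a median of 1 CpG, and no start of either receptor family holds the NRF1 motif. Olfr461 was highest of its list over its surroundings with both ends pooled, with 45 H3K27ac and 8 input reads and a ratio of 1.39 (0.65 to 3.42).

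Gzf1, the gene of the factor the series is about, holds the NRF1 motif at its start, with 2 copies of TGCGCA. In its start bin there were 70.8 H3K27ac and 10 input reads (ratio 1.75, 0.90 to 3.82), and the level over the surroundings was 1.15 in H3K27ac and 0.59 in the input (log2). Over both ends it had 197.8 and 40 reads and 1.22 (0.87 to 1.77), so an excess over input was not detectable at this depth.

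With 3 bins around both ends of each gene, as the lists were first set up, the differences were smaller. Then 134 of 47027 genes were 2-fold above their surroundings (0.285%), 241 were 2-fold above input (0.512%) and 42 were 2-fold below (0.0893%), and in the input 600 were 2-fold above their surroundings (1.28%). Of the listed genes past 2-fold over the surroundings there were 3, all olfactory receptors with 34 to 76.4 H3K27ac reads. Housekeeping genes had a pooled ratio of 1.20 (1.14 to 1.26), nucleolar and MYC targets 1.26 (1.18 to 1.35) and bivalent genes 1.00 (0.960 to 1.04), beside 1.05 for all genes. Named by rule among the high members were Npm1, a nucleolar chaperone, with 275.5 and 35 reads and 1.95 (1.37 to 2.86), and Ndn with 136 and 9.1 reads and 3.70 (1.91 to 8.35). Polr1b, a subunit of RNA polymerase I, was higher than Npm1 over input with 167.15 and 16.6 reads and 2.49 (1.47 to 4.27), as was Cfl1 with 2.23 (1.44 to 3.59), both named after their values were seen. Piwil2, of the piRNA pathway, was low with 121.7 and 56.85 reads and 0.53 (0.38 to 0.74). With 3 bins around the start alone, 1149 of 25747 genes were 2-fold above their surroundings (4.46%), beside 1350 in the input (5.24%), and 552 were 2-fold above input (2.14%) and 62 below (0.241%).

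Away from gene ends the regions rested on few input reads. Of the 2388 regions past both lines 946 lay 6 kb or more from any end (39.6%, beside 74.0% of the filtered bins), and 357 of them lay inside a gene. Their median was 30.05 H3K27ac and 2 input reads, against 72 and 6 at gene ends. In the regions away from ends the median level over the surroundings was 0.35 in anti-GZF1 and 0.32 in anti-FLAG, and at gene ends 1.09 and 0.80 (log2). The highest was inside Fam13b, 17 kb from its end (chromosome 18, 34506001 to 34507000), with 95.8 and 4.45 reads, 5.32-fold above input (2.24 to 22.2) and 4.49-fold above its surroundings. The bin inside Gcfc2 at chromosome 6, 81923001 to 81924000 had 111.85 and 7 reads and 3.95-fold (1.86 to 10.1). The bin 8 kb from Gsx2, a homeobox gene, at chromosome 5, 75067001 to 75068000 had 126.2 and 9 reads and 3.47-fold (1.77 to 7.75). These 3 stood on more than 1 input read, and anti-GZF1 was 3.06, 2.26 and 2.17-fold above its surroundings in them. Further down, bins near Gm26288, Gm49777 and Gm20327 and inside Lipk held 1 input read each, with 27 to 38.55 H3K27ac reads and upper bounds of 273 or more. The others lay inside Rbbp8, Tbxas1, Hlcs and Gm30837 and 28 kb from Hlf. In Hlcs, the enzyme that attaches biotin, the counts were 108.8 and 8 reads and the ratio 3.36 (1.65 to 8.0).

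In windows of 10 kb, where at least 10 input reads were asked for, H3K27ac and the input ran together. The median ratio of 232533 windows was 1.00, and 90% lay between 0.661 and 1.61. Windows at a ratio of 2 or more numbered 2652 and those at 0.5 or less 1060. The lower bound was above 1 in 17122 windows (7.36%) and the upper bound below 1 in 18239 (7.84%). With at least 20 input reads, 460 windows lay at 2 or more and 829 at 0.5 or less, and the bounds excluded 1 upward in 12272 (5.77%) and downward in 18023 (8.48%), so the balance between high and low windows turned with the minimum. Windows at 2 or more held a median of 14.15 input reads, against 38 in all windows. The highest lower bound was at chromosome 1, 23940001 to 23950000, outside genes, with 307.25 and 19 reads and a ratio of 4.0 (2.52 to 6.73). Next were windows in Pkia, an inhibitor of protein kinase A, with 186.2 and 11.35 reads and 4.06 (2.28 to 8.52), and in Ccdc3 with 180 and 11 reads and 4.05 (2.21 to 8.25). The window of Ift88, of the transport machinery of cilia, had 274 and 20 reads and 3.39 (2.15 to 5.63). The others of the first 10 overlapped Csmd3, Srfbp1 and Cenpw or no gene, and their ratios ran from 3.3 to 3.91.

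Bins high in H3K27ac were in part also high in other libraries, the input among them. Of the 1957480 filtered bins, 7195 were 2-fold above their surroundings in wild-type anti-GZF1, 44037 in RGM anti-GZF1 and 3767 in Cas9 anti-FLAG. In the control 564 passed, in the knockout 675 and in the input 149694 (7.65%). Of the 8838 bins 2-fold above their surroundings in H3K27ac, 2966 were so in wild-type anti-GZF1, which is 33.6% of the first and 41.2% of the second. With RGM anti-GZF1 4306 were shared (48.7% and 9.78%) and with Cas9 anti-FLAG 1599 (18.1% and 42.4%). With the control it was 147 (1.66% and 26.1%) and with the knockout 159 (1.80% and 23.6%), each of which passed in few bins of its own, and with the input 2489 (28.2% and 1.66%). Windows of 3 kb with at least 100 H3K27ac reads were therefore ranked by H3K27ac over both anti-GZF1 and anti-FLAG. The first 12 were 1.94 to 2.37-fold over anti-GZF1, 1.91 to 3.09-fold over anti-FLAG and 1.53 to 13.7-fold over input, and 11 hold a gene end and 9 a start. They include the windows of Cdc34, Rad51ap1, Specc1l, Phf12 and Hmmr described above. Rab35, a GTPase of membrane recycling, had 307.9 H3K27ac and 25 input reads and was 2.12-fold over anti-GZF1 (1.77 to 2.53) and 2.82-fold over anti-FLAG (2.35 to 3.40). Msh4, of meiotic recombination, had 164.05 and 10.05 reads and 2.20-fold (1.71 to 2.82) and 2.56-fold (1.99 to 3.28). The window at Ston1, with 165.9 reads against 3, was 13.7-fold over input (4.6 to 67.0).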

How the data were processed

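Of the 12 libraries 8 had columns in the deposited table and 4 were not analysed here. Tools named in the submitters' processing notes are cutadapt, Bowtie2 2.5.4, SAMtools and deepTools, with the build mm10. The authors deposited estimated counts (expected counts) per 1 kb bin, unscaled and in multiples of 0.05 reads. Duplicate filters are not given in the sources used here.

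Each library was divided by its autosomal mean. Ratios of pooled reads, medians and gene windows used all bins, and counts of bins past 2-fold used those with an input density of 0.25 to 3 (79.5%), where the plan had named the filter for every result. Log2 values carry a pseudocount of 0.5. With 1 library a side no test was run, and intervals use counts rounded to whole reads. Gene ends came from 47038 autosomal RefSeq genes, and starts and their sequences from the promoters of 25747 genes on 18 autosomes (RefSeq, GRCm38.p6). Chromosome 18 had no start sequence.

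Named by rule were the 12 highest regions at gene ends and 12 away, up to 3 highest and the lowest member of each list over local background, the highest 10 kb windows and fixed genes, of which those of most weight are printed. The members and lists were chosen with earlier results of these data known. CpG classes, start bins, the NRF1 motif, the word ranking and the windows over other antibodies were added after the data were seen. Scripts were tested on simulated data. Python 3.11.15, numpy 2.4.6, pandas 2.3.3, scipy 1.17.1 and matplotlib 3.10.9 were used.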

Additional observations from a re-analysis of the deposited data

Results flagged for a closer look

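Outside the autosomes, in data the comparisons above do not use, the mitochondrial genome was above the input in the H3K27ac library and chromosome X was not set apart from the autosomes. Mitochondrial DNA, which carries no histones, held 1808 H3K27ac and 223 input reads, densities of 6.70 and 3.34, and the ratio was 2.01 (1.74 to 2.32). In the other Cas9 libraries its density ran from 4.77 in anti-FLAG to 21.5 in the Gzf1 knockout. Chromosome X had densities of 0.638 and 0.624 and a ratio of 1.02 (1.02 to 1.03). This lies within the range of the autosomes (0.980 to 1.03), so no direction is read from it. What sets either value was not tested.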

How the results depend on the processing

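No paired analysis was possible because each group has 1 library and no replicate number. For the ratio over input, gene ends (1.07) went to 0.9377 when scaled to the median, 1.09 with the input filter, 1.116 at protein-coding ends and 1.155 at starts. Beyond 50 kb (1.004) the values were 0.8798, 0.8748, 0.9951 and 1.000. The median of gene-end bins over their surroundings (0.08507, log2) was 0.1014 and 0.06508 with pseudocounts of 0.25 and 1, 0.07422 and 0.09336 with 5 and 20 bins a side, 0.09355 thinned, 0.175 at protein-coding ends and 0.334 at starts. Bins 2-fold above input (98136) were 180840 and 24770 with those pseudocounts, 303382 without the filter, and 12761 and 632 at log2 1.5 and 2. Bins 2-fold above their surroundings (8838) were 22779 and 2440, 13433, 921 and 80 in that order, and 91385 thinned. Those with a gene end (2398) were 1302 with a pseudocount of 1, 4714 without the filter, 463 and 43 at log2 1.5 and 2 and 5469 thinned. Genes 2-fold above their surroundings (134) were 333 and 25 with the pseudocounts, 1395 with the end bin alone, 1149 with 3 bins around the 5-prime end and 4447 with start bins. Windows of 10 kb at 2 or more (2652) were 460 with 20 input reads and 231 at 20 kb. The excess of starts with the NRF1 motif (1.43) was 1.548 with the filter and 1.295 for the word TGCGCA. When scaled to the median, 8 list medians over input at both ends changed sign, to −0.07925 for pluripotency, −0.01381 for housekeeping, −0.04756 for immediate early, −0.1195 for bivalent, −0.02359 for differentiated, −0.104 for fibroblast, −0.1012 for olfactory and −0.03767 for imprinted genes. The other moves of list medians numbered 26 of 195, mostly with starts or fewer bins, and 161 did not move. The filter selects on input, the denominator. Thinning lowers depth alone. The cause of the other changes was not tested. The input's median of 3.25 reads a bin limits single bins and genes, and pooled classes are not limited by it.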
